A study of Mus musculus with 18 samples.

Results

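The comparison described here set the colon of tumour-bearing mice given nivolumab against the colon of tumour-bearing mice given a control antibody, gene by gene. Its members are the 3 colon libraries labelled nivolumab and the 3 labelled cancer, chosen by their labels, out of 18 libraries of colon and spinal dorsal horn in the series. All mice were labelled wild type. Per the series' design text, the cancer group carried a bone cancer and received IgG, the nivolumab group carried the cancer and received nivolumab, and the sham group had a sham procedure and received IgG. The sources used here do not give the tumour cell line, sex, age, dose or time of sampling. Each colon group had 3 libraries, and the 3 sham libraries entered the fit only to share the estimate of the spread and to show the level without tumour. Nothing states that the libraries came from separate animals, so p-values here cover only sample-to-sample spread, part of which may be technical.

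Nivolumab is an antibody developed against human PD-1, which restrains activated T cells and is encoded by Pdcd1 in the mouse. PD-1 is engaged by the ligands PD-L1 (Cd274) and PD-L2 (Pdcd1lg2), and its blockade releases T cells from that inhibition. In patients the colon is one of the organs in which inflammation follows PD-1 blockade, and interferon gamma from T cells raises antigen presentation in the gut epithelium. The colon wall layers an epithelium of absorptive, goblet, tuft and enteroendocrine cells over connective tissue and smooth muscle, so a bulk library mixes all of them.

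Total counts of the 6 libraries ran from 20896854 to 29974139. The values below are CPM, counts scaled to library size with TMM factors, and a floor of 3 counts corresponds to 0.100 to 0.144 CPM in these libraries. The colon markers Cdx2, an intestinal transcription factor, and Slc26a3, the chloride-bicarbonate exchanger of the colonocyte, were present throughout, with Slc26a3 at 608, 698 and 639.8 CPM in the cancer and 320.1, 463 and 463 CPM in the nivolumab libraries. On the leading principal component (41.9% of variance), cancer replicate 2 was at one end and sham replicate 3 at the other.

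No gene passed an adjusted p of 0.05 for nivolumab against cancer by the quasi-likelihood test of edgeR, so the share called was 0% of 13445 genes. With no adjustment, 1323 genes (9.84%) had p under 0.05, of which 746 were higher with nivolumab (5.55%) and 577 lower (4.29%). DESeq2 called 186 genes at the same adjusted threshold, 111 higher (0.826%) and 75 lower (0.558%), and limma-voom called 0. The smallest adjusted p with edgeR was 0.139, for Rpl29. The median log2 difference of all genes was 0.03, with an interquartile range of -0.30 to 0.28. Of the 13445 genes, 7143 had a positive difference, while 423 were at least 2-fold higher and 1074 at least 2-fold lower. The 3 nivolumab libraries lay wholly above the 3 cancer libraries for 7.99% of genes and wholly below for 7.16%. These shares are the background against which the gene groups are read, and which direction held more genes changed with the processing. All genes named below therefore did not pass the adjusted threshold of the edgeR test, and are given as values.

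Among the gene lists examined, the ribosomal protein genes, which encode the structural parts of the large and small ribosomal subunits, had the largest share of members at an unadjusted p under 0.05. All 70 tested members were higher with nivolumab, with a median log2 difference of 0.71 and a range of 0.36 to 1.47. At that threshold 68 of the 70 were higher and 0 lower, against the background of 5.55%. For 64 of them the libraries of the groups did not overlap, against 7.99% of all genes. With DESeq2, 48 of the 70 passed the adjusted threshold, against 0.826% of all genes. The list holds 75 genes, and the other 5 were not analysed here.

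Rpl29, a protein of the large subunit at chr9:106429454-106431568, plus strand (GRCm38), stood at 219.6, 178 and 243 CPM in the cancer libraries and 642, 596 and 533 CPM in the nivolumab libraries. The lowest nivolumab library was above the highest cancer library, and the sham libraries stood at 441, 492 and 535 CPM. The log2 difference was 1.47 ± 0.17 (SE, n = 3 per group; edgeR unadjusted p = 1.03e-05, adjusted p = 0.139). Rps15a, a protein of the small subunit, had 227, 192 and 227 CPM in cancer and 369, 404 and 352 CPM with nivolumab. It differed by 0.80 ± 0.13 on the log2 scale (edgeR unadjusted p = 0.00019, adjusted p = 0.201). Rpl29, Rps15a, Rps18 and Rpl15 were named under a rule that required no overlap between the groups. Rps18, also of the small subunit, had 393, 316 and 422 CPM in cancer and 777, 676 and 651 CPM with nivolumab (log2 difference 0.89 ± 0.16, edgeR unadjusted p = 0.000307, adjusted p = 0.237). Rpl15, of the large subunit, had 295, 233 and 279 CPM in cancer and 468, 485 and 448 CPM with nivolumab (log2 difference 0.80 ± 0.14, edgeR unadjusted p = 0.00037, adjusted p = 0.237). In each of these genes cancer replicate 2 was the lowest library. The abundant Rpl4 showed the same separation at 1030, 932 and 1066 CPM against 1646, 1710 and 1597 CPM. Ribosomal protein genes have many near-identical processed copies in the genome, so the authors' counting could split or misplace some of these reads.

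Many mRNAs of the translation machinery begin with a run of pyrimidines at the transcription start, the terminal oligopyrimidine tract, through which growth signalling controls their translation. The starts of 3 of the ribosomal protein genes with the smallest p are shown because their sequences display this shared feature. Each line gives 40 bases before and 20 from the annotated start, 5′ to 3′ on the gene's strand, from RefSeq's GRCm38.p6 annotation, with the pyrimidine run in capitals.
Rps15a, chr7:118116128-118116187, minus strand: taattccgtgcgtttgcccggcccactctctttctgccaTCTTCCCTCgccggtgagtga
Rps18, chr17:33955646-33955705, minus strand: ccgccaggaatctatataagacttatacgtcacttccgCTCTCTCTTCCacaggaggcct
Rpl15, chr14:18270967-18271026, minus strand: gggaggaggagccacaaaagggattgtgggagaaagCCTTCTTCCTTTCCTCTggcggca

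The runs are 9, 11 and 17 letters long. Of the 70 ribosomal protein genes, 51 had a start in the RefSeq table, and 21 of these (41.2%) held an unbroken run of at least 8 C or T letters, read on the gene's strand, that reached within 5 bases of the start. The same held for 12.6% of the 10612 tested genes with a start in the table. The median longest run was 6 letters in the ribosomal protein genes and 4 in all. This is a description of the letters at annotated starts, and Rpl29 was not among those with a start in the table.

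The large subunit genes had a median log2 difference of 0.72 over 43 tested members, and the small subunit genes 0.64 over 27. Of 18 tested translation factors and other genes with such tracts, a list drawn up after values had been seen, 18 were higher, 15 of them at an unadjusted p under 0.05, with a median of 0.55. The ribosomal proteins of the mitochondrion, which are encoded by separate nuclear genes, were higher in 73 of 74, with a median of 0.35, and 18 were at an unadjusted p under 0.05. The counts of 15 and 18 stand beside 5.55% of all genes higher. Together the cytoplasmic ribosomal protein genes took 2.40% to 3.04% of all counts in the cancer libraries, 4.18% to 4.67% in the nivolumab libraries and 3.56% to 4.01% in the sham libraries. The sham libraries thus lay between the 2 tumour-bearing groups. Against sham, all 70 were lower in cancer (median log2 difference -0.46) and all 70 were higher with nivolumab (median 0.26), and these comparisons share libraries with the one reported.

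Ribosomal protein mRNAs are short, and transcript length moved with the differences across genes. The median transcript length was 719 bases for the ribosomal protein genes and 2246 for all genes. Without the ribosomal protein genes, the tenth of genes with the shortest transcripts had a median log2 difference of 0.13 and the tenth with the longest a median of -0.13. The part of length in the ribosomal protein result was not tested. With each library left out in turn, 57 to 70 of the ribosomal protein genes were higher at an unadjusted p under 0.05. Leaving out cancer replicate 2 and nivolumab replicate 1 together, chosen after seeing the data because both had low cell cycle expression, gave 42. With the cell cycle list mean as a covariate, also added later, there were 67. All 70 stayed positive under upper-quartile and DESeq2 scaling.

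**Figure D1:**
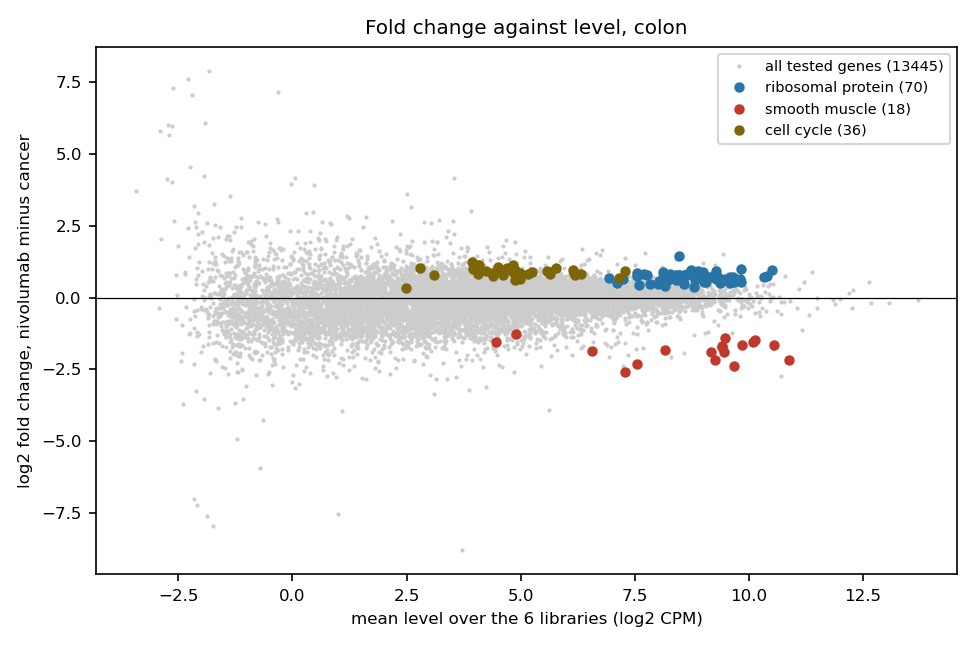
Each point is a tested colon gene, with its mean level over the 6 libraries in log2 CPM on the x axis and its log2 fold change, nivolumab minus cancer, on the y axis. The 70 ribosomal protein genes lie between 0.36 and 1.47, the 18 smooth muscle genes between -2.60 and -1.25 and the 36 cell cycle genes between 0.35 and 1.22.

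Genes of the smooth muscle contractile apparatus were lower with nivolumab, but with a wide spread between libraries. All 18 tested members were lower, with a median log2 difference of -1.78, a range of -2.60 to -1.25 and no overlap of libraries in 17. Of the 18, 12 had an unadjusted p under 0.05, against a background of 4.29%. Smtn, a cytoskeletal protein of contractile smooth muscle, stood at 327, 711 and 655 CPM in cancer and 219.6, 125 and 132 CPM with nivolumab (log2 difference -1.83 ± 0.68, edgeR unadjusted p = 0.0246, adjusted p = 0.492). Des, the muscle intermediate filament, stood at 965, 1406 and 3890 CPM in cancer and 516, 370 and 309 CPM with nivolumab (log2 difference -2.39 ± 0.90, edgeR unadjusted p = 0.0264, adjusted p = 0.492). Myh11, the smooth muscle myosin heavy chain, gave 2149, 3937 and 7144 CPM in cancer and 1475, 660 and 798 CPM with nivolumab. In a bulk sample fewer cells of a type and less RNA per cell cannot be told apart.

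The sham libraries ran from below the lowest nivolumab library to within the range of the cancer libraries for Smtn and Des. Smtn stood at 244, 588 and 64.5 CPM and Des at 1002, 2949 and 169 CPM in sham. Smooth muscle genes took 0.287% to 3.52% of the counts in sham, 1.19% to 3.69% in cancer and 0.602% to 0.842% with nivolumab. The count of 12 was 0 without cancer replicate 3, 0 without nivolumab replicate 2, 0 without nivolumab replicate 3, 6 without nivolumab replicate 1, 7 without cancer replicate 2, 8 without sham replicate 1, and 18 without sham replicate 2 or sham replicate 3. The count of 12 therefore rests on single libraries. The number of all genes lower at an unadjusted p under 0.05 rose too, from 577 to 812 of 13582 without sham replicate 2. Without sham replicate 3 it was 931 of 13603. With the smooth muscle list mean as a covariate, 62 of the 70 ribosomal protein genes, 5 interferon gamma genes, 2 immediate early genes and 2 tuft genes had an unadjusted p under 0.05 in the direction described for each list, and the part of muscle content in these results was not otherwise tested. The neuronal list also leaned lower, with 21 of 22 enteric neuron genes negative and 0 at an unadjusted p under 0.05. Its mean in log2 CPM was 2.76, 4.79 and 3.24 in cancer and 3.53, 2.65 and 2.94 with nivolumab. The groups overlapped and cancer replicate 2 stood well above the rest, so the signs of these genes are not separate observations.

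**Figure D2:**
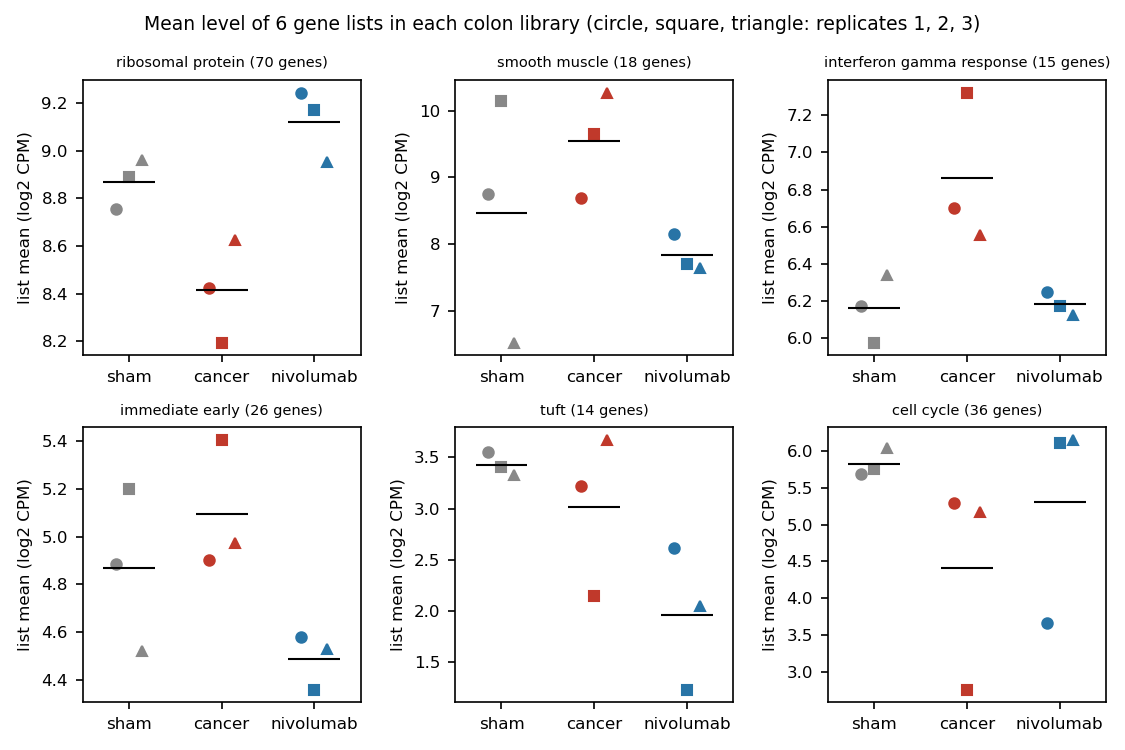
Each panel gives the mean log2 CPM of a gene list (y axis) in the 9 colon libraries by group, with circles, squares and triangles for replicates 1, 2 and 3 and a line at the group mean. The ribosomal protein means of the nivolumab libraries lie at 9.24, 9.17 and 8.95 and those of the cancer libraries at 8.43, 8.20 and 8.62, and the cell cycle list is low in cancer replicate 2 (2.75) and nivolumab replicate 1 (3.67).

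Genes of antigen presentation and of the interferon gamma response, which T cell cytokines induce, leaned lower with nivolumab. Of 15 tested genes of the interferon gamma list, 13 were lower and 2 higher, with a median log2 difference of -0.73. At an unadjusted p under 0.05 there were 6 lower and 0 higher, against 4.29% of all genes lower. Ciita, the master activator of class II antigen presentation genes at chr16:10480059-10528418, plus strand (GRCm38), stood at 70.3, 99.3 and 84.9 CPM in cancer and 29.9, 31.4 and 34.4 CPM with nivolumab. Every nivolumab library was below every cancer library, which the rule that named Ciita required. The sham libraries stood at 80.9, 52.3 and 50.4 CPM. The log2 difference, nivolumab minus cancer, was -1.41 ± 0.21 (edgeR unadjusted p = 0.000109, adjusted p = 0.182). Cd74, the invariant chain that escorts class II molecules, had 2039, 4652 and 3969 CPM in cancer and 1983, 1551 and 1333 CPM with nivolumab (log2 difference -1.13 ± 0.31, edgeR unadjusted p = 0.00561, adjusted p = 0.379). The guanylate-binding protein Gbp2 gave 158, 554 and 234 CPM in cancer and 135, 150 and 109 CPM with nivolumab, and the immunity-related GTPase Igtp 224, 303 and 321 CPM in cancer and 224, 130 and 112 CPM with nivolumab. In both the groups did not overlap, though the highest nivolumab and the lowest cancer library were nearly equal for Igtp. The H2 genes that encode the class I and class II chains were not analysed here.

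The class I antigen presentation list had 9 of 14 members lower and 5 higher, with a median log2 difference of -0.28. Of these, 4 lower and 0 higher had an unadjusted p under 0.05, against 4.29% of all genes lower. Psmb9, an inducible proteasome subunit, stood at 147, 160.4 and 145 CPM in cancer and 128, 104 and 77.2 CPM with nivolumab, and Tap2, a subunit of the peptide transporter, stood at 174, 185 and 154 CPM in cancer and 147, 94.3 and 80.8 CPM with nivolumab. Their log2 differences were -0.55 ± 0.18 and -0.67 ± 0.22, with edgeR adjusted p of 0.459 and 0.465. Every sham library was also below every cancer library, with Tap2 at 94.6, 96.97 and 81.1 CPM. Type I interferon response genes were lower in 25 of 26, of which 3 had an unadjusted p under 0.05, against 4.29% of all genes. The count of 3 became 13 without nivolumab replicate 1 and 0 without cancer replicate 1, nivolumab replicate 2 or nivolumab replicate 3, and it was 24 of 26 without cancer replicate 2 and nivolumab replicate 1 together. The interferon gamma count of 6 was 3 without nivolumab replicate 2, and 4 without cancer replicate 2, nivolumab replicate 3 or sham replicate 1. Its highest value with 1 library left out was 8. The class I count of 4 was 2 without cancer replicate 2, nivolumab replicate 2 or nivolumab replicate 3, and 7 without nivolumab replicate 1. Over all genes, 800 of 13608 were lower at an unadjusted p under 0.05 without nivolumab replicate 1. Without cancer replicate 2 and nivolumab replicate 1 together, 518 of 13548 were.

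The receptor and its ligands overlapped between the groups. Pdcd1 stood at 2.12, 1.65 and 0.795 CPM in cancer and 1.28, 0.739 and 1.17 CPM with nivolumab (log2 difference -0.52 ± 0.51, edgeR unadjusted p = 0.335, adjusted p = 0.683). Pdcd1lg2 stood at 0.906, 0.827 and 0.348 CPM in cancer and 0.241, 0.638 and 1.07 CPM with nivolumab (log2 difference -0.09 ± 0.63, edgeR unadjusted p = 0.89, adjusted p = 0.959). Cd274 stood at 31.5, 82.3 and 48.4 CPM in cancer and 32.1, 19.01 and 31.8 CPM with nivolumab (log2 difference -0.97 ± 0.38, edgeR unadjusted p = 0.0312, adjusted p = 0.495), and the groups overlapped. Of 25 checkpoint genes 19 were lower, 3 of them and 1 of those higher at an unadjusted p under 0.05, against 4.29% and 5.55% of all genes. The 3 lower were Cd274, Ptpn11, a phosphatase that acts below PD-1, and Pvr, a ligand of the receptor TIGIT. The 3 became 1 without cancer replicate 2, nivolumab replicate 2 or nivolumab replicate 3, and at most 4 with another library left out. Tnfrsf9, the costimulatory receptor 4-1BB of activated T cells, had the smallest p of the list and was higher, at 0.647, 1.74 and 0.895 CPM in cancer and 3.65, 2.12 and 4.16 CPM with nivolumab.

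Few markers of the immune cells themselves differed at an unadjusted p under 0.05. In the T cell list 0 of 18 tested genes, in the cytotoxic and NK list 0 of 16, in the B cell list 0 of 17 and in the neutrophil list 0 of 14 did so. Over all genes the share was 9.84%, so lists this short would hold few at that share. By sign, 11 of 14 neutrophil genes were higher (median log2 difference 1.17), and 14 of 17 B cell genes (median 0.54). Of the T cell genes 6 of 18 were higher, and of the cytotoxic and NK genes 6 of 16. The neutrophil count became 5 higher without cancer replicate 2, and the cytotoxic and NK list had 1 higher without nivolumab replicate 2 and 1 lower without nivolumab replicate 3. The B cell list had 1 lower without cancer replicate 2. Counted by sign alone, 11 of 13 plasma cell and 14 of 18 macrophage genes were higher, and 9 of 12 dendritic cell genes were lower. At an unadjusted p under 0.05, the plasma cell list had 1 higher, the macrophage list 1 higher and the dendritic cell list 1 lower. Leaving out single libraries moved these counts to 0 without cancer replicate 2 and 3 without cancer replicate 1 for plasma cells, and to 0 without cancer replicate 3 or nivolumab replicate 3 and 2 without cancer replicate 2 for macrophages. The dendritic cell count was 3 without cancer replicate 3, 2 without nivolumab replicate 3, and 0 without cancer replicate 1, cancer replicate 2, nivolumab replicate 1, nivolumab replicate 2 or sham replicate 1. Of 7 genes of type 17 and innate lymphoid cells 4 were lower, 2 of them at an unadjusted p under 0.05. The transcription factor Gata3, 1 of these 2, stood at 3.62, 9.05 and 4.47 CPM in cancer and 2.01, 1.71 and 3.02 CPM with nivolumab. The growth factor Areg, the other, stood at 58.7, 74.8 and 37.9 CPM in cancer and 36.3, 37.02 and 37.6 CPM with nivolumab. The count of 2 lower stands beside 4.29% of all genes. It was 0 without cancer replicate 2 or nivolumab replicate 2, and 1 without nivolumab replicate 1 or nivolumab replicate 3. With another library left out it reached at most 3. The T cell coreceptor Cd8a ran at 19.03, 28.6 and 10.4 CPM in cancer and 23.99, 3.93 and 13.8 CPM with nivolumab, and the groups overlapped. The neutrophil granule gene S100a9 stood at 4.45, 26.5 and 0.298 CPM in cancer, 54.9, 12.03 and 79.9 CPM with nivolumab and 0.665, 0.357 and 0 CPM in sham, with overlap between the tumour-bearing groups (edgeR unadjusted p = 0.121, adjusted p = 0.56). Nos2, the inducible nitric oxide synthase, overlapped at 255, 381 and 339.8 CPM in cancer and 58.4, 191 and 288 CPM with nivolumab and stood at 58.7, 63.4 and 29.8 CPM in sham.

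Immediate early genes, which respond to stimulation and handling within minutes, were lower with nivolumab in 25 of 26, with a median log2 difference of -0.51. At an unadjusted p under 0.05 there were 9 lower, against 4.29% of all genes. Fos stood at 119, 151 and 266 CPM in cancer and 62.2, 101 and 86.7 CPM with nivolumab, and Klf6 at 356, 458 and 361 CPM in cancer and 274, 251 and 218 CPM with nivolumab. Neither overlapped between groups, and their log2 differences were -1.10 ± 0.30 and -0.66 ± 0.19 (edgeR adjusted p of 0.379 and 0.394). The count of 9 was 4 without nivolumab replicate 3 and 5 without cancer replicate 2, and at most 12 with another library left out.

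The glucocorticoid-induced list had 5 of 22 members lower at an unadjusted p under 0.05, against 4.29% of all genes. Zbtb16, a transcriptional repressor induced by glucocorticoids, stood at 53.1, 88.4 and 41.01 CPM in cancer, 25.04, 14.1 and 17.2 CPM with nivolumab and 2.63, 7.14 and 9.98 CPM in sham, so the tumour-bearing groups did not overlap and both lay above sham. Klf9 gave 123, 199 and 103 CPM in cancer and 100.1, 73.4 and 79.8 CPM with nivolumab. Without nivolumab replicate 1 the count was 11, without nivolumab replicate 2 or 3 it was 2, and without cancer replicate 2 or sham replicate 1 it was 3. In the fit without nivolumab replicate 1, 800 of all 13608 genes were lower at that threshold.

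Tuft cells sense luminal contents through taste-type signalling. All 14 tested markers were lower with nivolumab, with a median log2 difference of -1.21. Of these, 7 had an unadjusted p under 0.05, against 4.29% of all genes lower. Dclk1, a kinase that marks tuft cells, stood at 27.7, 39.6 and 36.8 CPM in cancer, 20.9, 10.6 and 15.99 CPM with nivolumab and 39.2, 43.1 and 30.1 CPM in sham. No nivolumab library reached the lowest cancer or sham library (log2 difference -1.13 ± 0.27, edgeR unadjusted p = 0.00249, adjusted p = 0.353). Bmx, a tyrosine kinase found in these cells, gave 4.83, 3.05 and 5.62 CPM in cancer and 2.09, 1.14 and 2.28 CPM with nivolumab. Trpm5, the taste transduction channel, gave 29.7, 5.05 and 32.1 CPM in cancer and 11.2, 3.02 and 5.60 CPM with nivolumab, with cancer replicate 2 low. The count of 7 was 3 without cancer replicate 3, 4 without cancer replicate 1, nivolumab replicate 2 or nivolumab replicate 3, and 10 without cancer replicate 2, and ran to 12 without cancer replicate 2 and nivolumab replicate 1.

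Secretory and crypt genes were unequal. Reg4, a lectin of deep crypt secretory cells, stood at 6.91, 0.827 and 3.88 CPM in cancer, 29.7, 158 and 21.4 CPM with nivolumab and 853, 2362 and 875 CPM in sham. Every nivolumab library was above every cancer library and below every sham library (log2 difference 4.17 ± 1.00, edgeR unadjusted p = 0.00257, adjusted p = 0.354). Retnlb, a goblet cell antimicrobial protein, ran the other way at 1596, 712 and 1507 CPM in cancer and 670.3, 463 and 468 CPM with nivolumab. Of 16 goblet genes 11 were lower and 5 higher, with 2 lower (Clca1 and Fcgbp) and 1 higher (Creb3l1) at an unadjusted p under 0.05, against 4.29% and 5.55% of all genes. Creb3l1, a transcription factor of secretory cells, stood at 192, 71.5 and 157 CPM in cancer and 198, 328 and 234 CPM with nivolumab, without overlap. The goblet gene Clca1 stood at 13260, 1776 and 1741 CPM in cancer and 955, 1029 and 552 CPM with nivolumab. In sham it stood at 14100, 18790 and 17250 CPM. Cancer replicate 1 was thus far above the other cancer libraries and nearest to sham. The lower count of 2 for goblet genes was 1 without cancer replicate 1 or nivolumab replicate 3, and at most 3 with another library left out. The higher count of 1 was 0 without cancer replicate 2, cancer replicate 3, nivolumab replicate 2 or nivolumab replicate 3. Without cancer replicate 1 it was 2. Itln1, an intelectin lectin, stood at 2491, 57.8 and 6.81 CPM in cancer and 2.77, 0.672 and 2.31 CPM with nivolumab, without overlap. Here cancer replicate 1 was far above every other library, with sham at 102, 74.6 and 70.8 CPM. Lgr5, the receptor of crypt stem cells, overlapped at 0.345, 0 and 1.89 CPM in cancer and 0.762, 8.73 and 7.47 CPM with nivolumab.

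Among enteroendocrine genes, at low levels, 4 of 17 were higher at an unadjusted p under 0.05 and 0 lower. Over all genes the shares were 5.55% and 4.29%. Gcg, the proglucagon gene of L cells, stood at 32.9, 27.3 and 40.5 CPM in cancer and 87.2, 40.9 and 42.4 CPM with nivolumab. Rfx6, a transcription factor of endocrine cells, stood at 0.173, 0.348 and 0.646 CPM in cancer and 1.28, 1.11 and 1.31 CPM with nivolumab. Pax4, an endocrine transcription factor, had 2 counts over the cancer libraries and 55 over the nivolumab libraries, a ratio of 21.6 with a 95% exact counting interval of 5.69 to 183. The enteroendocrine count of 4 became 1 without cancer replicate 1, 2 without cancer replicate 2 and 6 without cancer replicate 3.

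Cell cycle genes leaned higher with nivolumab in all 36 tested members, with a median log2 difference of 0.90, yet 1 had an unadjusted p under 0.05. The list mean in log2 CPM was 5.29, 2.75 and 5.17 in cancer and 3.67, 6.11 and 6.15 with nivolumab. Cancer replicate 2 and nivolumab replicate 1 were low, and the other libraries of both groups were not. Pcna, the sliding clamp of DNA replication and the member with the smallest p, gave 69.8, 30.4 and 63.8 CPM in cancer and 53.97, 134 and 128 CPM with nivolumab and overlapped. Those 2 libraries were left out together because this list was low in them. That choice narrows the spread of these genes, so the resulting count is no support for a difference. Without both, 34 of 36 were higher at an unadjusted p under 0.05, against 718 of 13548 genes in that fit. Without nivolumab replicate 1 alone, 11 were.

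The genes with the smallest p in each direction, among those that average at least 1 log2 CPM and do not overlap, include some that are in no list. Gsta3, a glutathione transferase at chr1:21240589-21265661, plus strand, stood at 3.58, 6.31 and 5.12 CPM in cancer, 18.3, 22.4 and 23.7 CPM with nivolumab and 17.3, 25.1 and 18.3 CPM in sham. The cancer libraries were the lowest of all (log2 difference 2.10 ± 0.27, edgeR unadjusted p = 3.39e-05, adjusted p = 0.141). The xenobiotic metabolism list, which it leads, had 8 of 28 members higher at an unadjusted p under 0.05 and 0 lower. Over all genes 5.55% were higher and 4.29% lower. Gstm1, another glutathione transferase, gave 112, 138 and 130.1 CPM in cancer and 199, 202 and 179 CPM with nivolumab. The count of 8 was 3 without nivolumab replicate 1, 4 without cancer replicate 2, and 5 without cancer replicate 1, cancer replicate 3, sham replicate 2 or sham replicate 3. Its highest value with 1 library left out was 9. Nqo1, a quinone reductase, overlapped at 20.97, 10.9 and 37.3 CPM in cancer and 97.98, 35.6 and 50.6 CPM with nivolumab.

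Entpd4, a nucleotide-hydrolysing enzyme of the Golgi, stood at 30.8, 34.1 and 32.6 CPM in cancer and 65.1, 69.1 and 58.7 CPM with nivolumab, and the near-identical copy Entpd4b may share reads with it. Reep6, a receptor-accessory protein of the endoplasmic reticulum, stood at 9.41, 5.92 and 7.90 CPM in cancer and 22.5, 19.6 and 19.4 CPM with nivolumab. Their log2 differences were 0.98 ± 0.14 and 1.41 ± 0.22, with edgeR adjusted p of 0.141 and 0.196. The sham libraries stood at 71.8, 65.3 and 55.9 CPM for Entpd4 and 21.8, 19.8 and 17.7 CPM for Reep6, also above every cancer library. Uimc1, a component of a DNA damage response complex, stood at 73.8, 80.9 and 70.3 CPM in cancer and 139.8, 118 and 117 CPM with nivolumab. Colgalt1, a collagen galactosyltransferase, stood at 71.3, 74.5 and 67.5 CPM in cancer and 111, 126 and 108 CPM with nivolumab, and Ublcp1, a proteasome phosphatase, at 28.3, 24.02 and 32.2 CPM in cancer and 47.02, 54.6 and 53.99 CPM with nivolumab. The absence of overlap between the groups was a condition for naming these genes, so it is not a finding about them.

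The gene with the smallest p among those lower was Ly6d, a glycolipid-anchored surface protein of the Ly6 family at chr15:74762056-74763620, minus strand (GRCm38). It stood at 167, 355 and 95.9 CPM in cancer, 10.4, 13 and 17.8 CPM with nivolumab and 5.86, 9.49 and 6.61 CPM in sham. The cancer libraries were far above the other 6 (log2 difference -3.90 ± 0.49, edgeR unadjusted p = 2.43e-05, adjusted p = 0.141). It passed an adjusted p of 0.05 in edgeR when cancer replicate 3 was left out (0.0364). Neighbours of Ly6d on chromosome 15 were looked at after its values were seen. Psca, a related surface protein at chr15:74714839-74717069, plus strand, had 12.9, 52.3 and 11.3 CPM in cancer and 11 counts over the 3 nivolumab libraries against 1726 over the cancer libraries, a ratio of 200.2 with an interval of 111.6 to 402. In sham it stood at 0.222, 0.0794 and 0 CPM. Ly6k had 178 counts in cancer and 11 with nivolumab, a ratio of 20.6 with an interval of 11.3 to 42.1. Jrk, Them6 and Lynx1 lie in the same stretch and were also lower in every nivolumab library than in any cancer library, with Them6 at 10.3, 18.9 and 6.91 CPM in cancer and 5.58, 4.40 and 4.93 CPM with nivolumab. The further neighbours Arc, Gml, Ly6e and Ly6i overlapped between groups. Ly6d also stands in the list of squamous epithelium, a lining the colon lacks. Of its 10 tested members, 2 were lower and 1 higher at an unadjusted p under 0.05, against 4.29% and 5.55% of all genes. The squamous list mean in log2 CPM was 1.38, 1.36 and 1.49 in cancer and 0.44, 1.21 and 1.17 with nivolumab. Its defining keratin Krt5 was near 0 in both groups, at 0.216, 0.740 and 0.994 CPM in cancer and 0.161, 0.638 and 0.335 CPM with nivolumab.

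Chrm3, the M3 muscarinic acetylcholine receptor of epithelium and smooth muscle, stood at 6.82, 7.49 and 10.4 CPM in cancer, 0.802, 1.78 and 0.871 CPM with nivolumab and 10.7, 14.3 and 10.6 CPM in sham. The nivolumab libraries were alone in being low (log2 difference -2.83 ± 0.40, edgeR unadjusted p = 6.45e-05, adjusted p = 0.141). Zfp868, a zinc finger protein, gave 46.1, 53.2 and 31.96 CPM in cancer and 15.2, 15.6 and 16.6 CPM with nivolumab and 14.2, 13.8 and 17.2 CPM in sham. Hbegf, a growth factor that activates the EGF receptor, stood at 63.6, 66.7 and 53.5 CPM in cancer and 29.2, 30.8 and 22.6 CPM with nivolumab. Tnfsf10, the death ligand TRAIL, stood at 83.1, 89.4 and 76.01 CPM in cancer and 56.05, 49.98 and 49.9 CPM with nivolumab. These genes too were named under the condition that the groups did not overlap. Trim40, a ubiquitin ligase of the gut epithelium, stood at 257, 273 and 355 CPM in cancer and 138, 166 and 168 CPM with nivolumab, with the sham libraries at 147, 124 and 113 CPM. Pyroxd2, a mitochondrial oxidoreductase, stood at 36.9, 38.95 and 33.3 CPM in cancer and 16.6, 7.22 and 8.81 CPM with nivolumab. Tbc1d1, which regulates glucose transporter traffic, stood at 88.6, 111 and 93.8 CPM in cancer and 61.95, 47.5 and 62.4 CPM with nivolumab, and Spats2l at 129, 108 and 127 CPM in cancer and 75.4, 69.4 and 65.8 CPM with nivolumab.

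**Figure D3:**
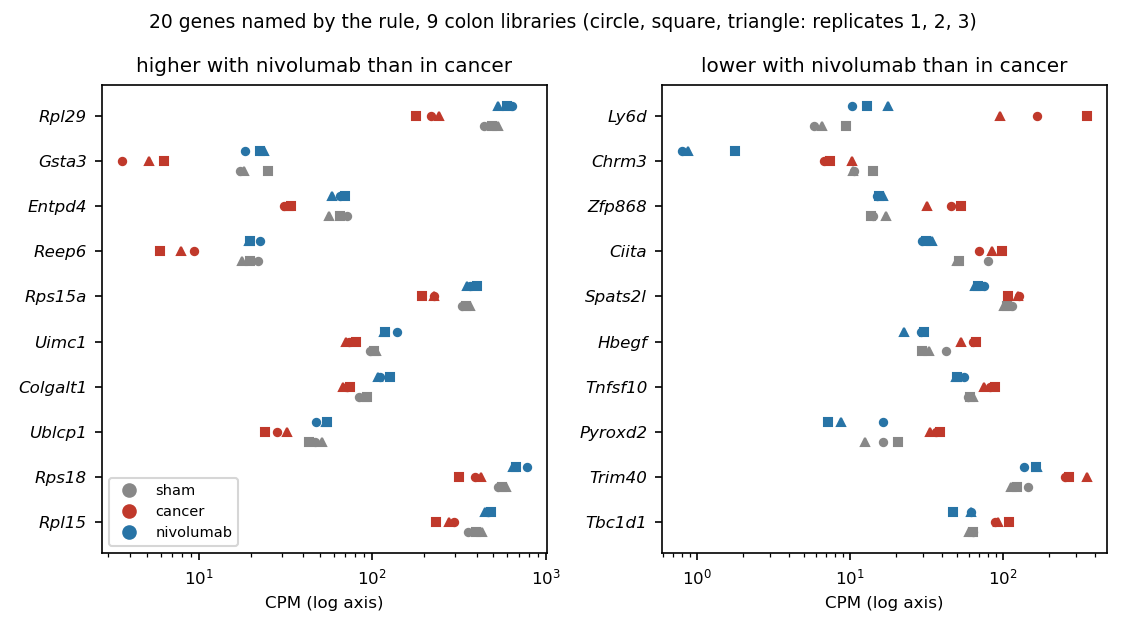
The 10 genes with the smallest p in each direction, among those that average at least 1 log2 CPM and do not overlap between groups, as CPM on a log x axis, in the sham (grey), cancer (red) and nivolumab (blue) libraries; circles, squares and triangles are replicates 1, 2 and 3. By that choice the cancer libraries lie apart from the nivolumab libraries in every gene plotted. For Ly6d the cancer libraries stand at 167, 355 and 95.9 CPM against 10.4, 13.0 and 17.8 CPM with nivolumab.

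Cps1, carbamoyl phosphate synthetase of the urea cycle and of the intestinal epithelium, had 3 counts over the cancer libraries and 631 over the nivolumab libraries. The ratio was 165 with an interval of 56.2 to 802, and the nivolumab libraries held 4.74, 14.5 and 2.75 CPM (edgeR unadjusted p = 0.000359, adjusted p = 0.237). Sham stood at 58.03, 28.9 and 9.01 CPM. Of 16 lipid synthesis genes 11 were higher and 5 lower. Acaca and Fasn were the 2 higher at an unadjusted p under 0.05, against 5.55% of all genes. The count of 2 was 1 without cancer replicate 2, cancer replicate 3 or nivolumab replicate 2 and 4 without nivolumab replicate 1. Acaca, the first enzyme of fatty acid synthesis, stood at 56.2, 53.1 and 60.4 CPM in cancer and 71.4, 89.8 and 80.8 CPM with nivolumab, without overlap, and Fasn at 214, 161 and 186 CPM in cancer and 234, 319.5 and 239 CPM with nivolumab. Of 25 cholesterol synthesis genes 22 were higher, 4 at an unadjusted p under 0.05, among them Stard4 at 153, 115 and 144 CPM in cancer and 180.4, 249 and 173 CPM with nivolumab. The count of 4 stands beside 5.55% of all genes higher. It was 0 without cancer replicate 2, 0 without nivolumab replicate 2 and 1 without nivolumab replicate 1, and at most 6 with another library left out. Lpo, lactoperoxidase, which was chosen after its values were seen, stood at 453, 162 and 528 CPM in cancer, 82.01, 42.1 and 94.5 CPM with nivolumab and 38.5, 17.1 and 25.1 CPM in sham, so the nivolumab libraries lay between the other 2 groups.

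**Figure D4:**
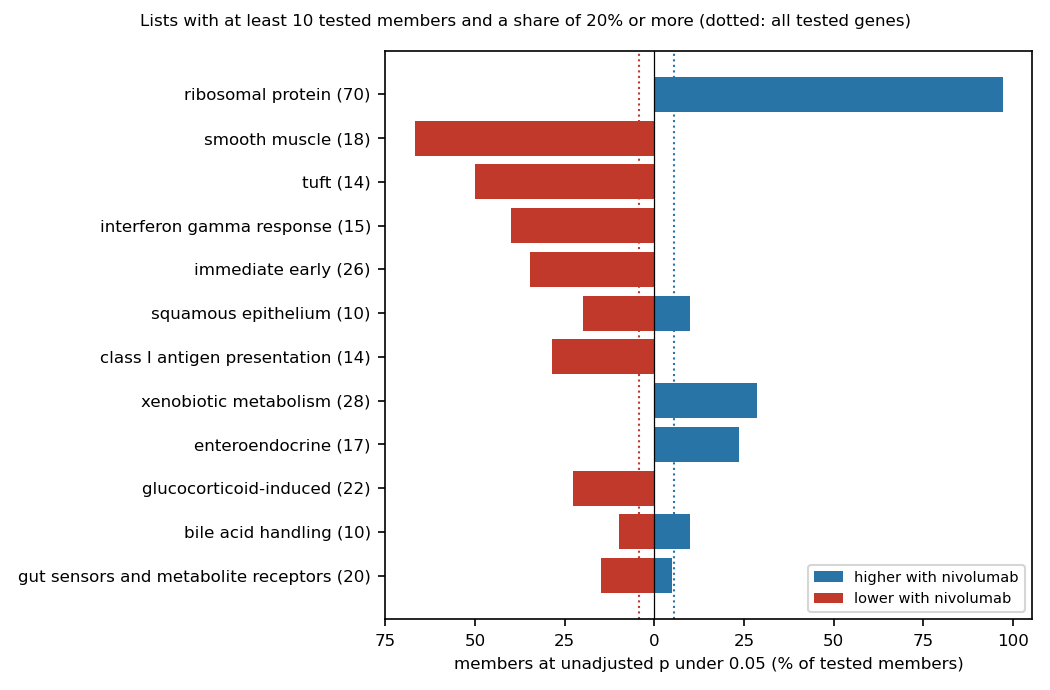
Bars give the share of tested members at an unadjusted p under 0.05 (x axis, % of tested members), to the right where higher and to the left where lower with nivolumab, for lists with at least 10 tested members and a share of at least 20%, with dotted lines for all tested genes (5.55% higher, 4.29% lower). Ribosomal protein genes reach 97.1% higher and smooth muscle genes 66.7% lower.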

How the data were processed

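Total RNA of mouse colon was reverse-transcribed with a SmartScribe kit, per the labels' protocols. The authors deposited whole-number counts per gene in 1 colon table of 14987 genes. FastQC 0.11.5, Trimmomatic, HISAT2, StringTie and GRCm38 are named in the submitters' processing notes; no counting tool or strand setting was stated in these sources. Antisense and overlapping genes therefore cannot be told apart. Counts were fitted with edgeR 4.0.16 in R 4.3.3 (TMM, default expression filter, robust quasi-likelihood, all 9 colon libraries), leaving 13445 genes, with a Benjamini-Hochberg threshold of 0.05. DESeq2 1.42.0 and limma 3.58.1 were alternatives, and the fit was tested on simulated data. Symbols of 14985 genes matched GENCODE's GRCm38 annotation. SE were derived from the F statistic. Counting intervals are 95% exact, and they and the floor of 3 counts cover counting error only; genes with 1 count were rarer than genes with 2, so they may be too narrow. No 2 libraries of a group agreed within sampling noise. No source used here states whether replicate numbers pair the groups, and 3 libraries per group cannot decide it.

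Genes were named by a rule: the 10 smallest p in each direction among genes whose groups did not overlap and whose log2 CPM averaged at least 1, up to 2 members with the smallest p per list, and Pdcd1, Cd274 and Pdcd1lg2. Other genes named were chosen after their values were seen. Not every gene that the rule names is reported here. Members and lists were chosen with earlier results of these data known. Dorsal horn libraries were not used here.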

Additional observations from a re-analysis of the deposited data

How the results depend on the processing

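The number of genes at an adjusted p of 0.05 was 0 with edgeR and in every alternative except DESeq2's Wald test, which called 186, and without cancer replicate 3, which left 2. Those 2, named for that reason, were Ly6d (log2 difference -4.24, adjusted p = 0.0364) and Acp1, which was higher at 1.98 (adjusted p = 0.0213). Leaving out one library at a time gave 0 to 2 adjusted calls and 741 to 1665 genes at an unadjusted p under 0.05, against 1323 with all libraries. A smooth muscle list mean as a covariate gave 669, and the cause was not tested. The low counts came without cancer replicate 2 (765), nivolumab replicate 2 (741) or nivolumab replicate 3 (872), each with 1 sample fewer. The replicate number as a block gave 1034. Deviations of same-numbered libraries correlated at -0.41, -0.44 and -0.08, and with so few libraries this cannot decide whether the numbers pair. Other settings gave 1207 to 1700. Which direction held more genes also changed. With DESeq2 size factors 615 were higher and 677 lower, and with only the 6 libraries 469 and 738. With limma-voom 769 were higher and 491 lower, and with upper-quartile factors 710 and 608. With 1 library left out, the genes higher ran from 416 to 844 and those lower from 325 to 931. List counts from those fits therefore have a background of their own. Of the genes given with a log2 difference, Pdcd1lg2 (-0.09) took both signs across alternatives, from -0.68 to 0.38, and the others kept theirs. Scaling moved the median of all genes by less than 0.1 on the log2 scale. Precision is limited by 3 libraries per group and a biological coefficient of variation of 0.376; genes near 0 counts also depend on the prior count.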

Other observations

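Of 25 tested matrix proteases and inhibitors, 3 were higher with nivolumab at an unadjusted p under 0.05 and 0 lower. Over all genes the shares were 5.55% and 4.29%. None of the 25 passed the adjusted threshold of edgeR. The 3 higher became 1 without nivolumab replicate 3 and at most 4 with another library left out. The 0 lower became 3 without cancer replicate 3. Mmp13, a collagenase, stood at 8.63, 6.27 and 0.248 CPM in cancer and 34.5, 37.1 and 26.8 CPM with nivolumab, and Mmp10, a stromelysin, at 12.2, 8.40 and 0.248 CPM in cancer and 36.9, 30.8 and 37.9 CPM with nivolumab. In both, cancer replicate 3 was far below the other cancer libraries. Cx3cl1, the ligand of the fractalkine receptor, stood at 73.8, 62.4 and 80.8 CPM in cancer and 141, 106 and 103 CPM with nivolumab, without overlap. Arg1, the arginase of the urea cycle, stood at 1.42, 1.35 and 1.39 CPM in cancer and 4.25, 2.49 and 22.3 CPM with nivolumab, with nivolumab replicate 3 far above the others. The haemoglobin gene Hbb-bs stood at 27.8, 12.5 and 8.003 CPM in cancer and 102, 15.99 and 48.1 CPM with nivolumab and overlapped.

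Genes lower with nivolumab outside the groups above included Hlf, a clock-controlled transcription factor, at 17, 42.6 and 14.9 CPM in cancer and 9.83, 4.27 and 6.17 CPM with nivolumab. Cish, a feedback inhibitor of cytokine signalling, stood at 26.1, 30.2 and 24.7 CPM in cancer and 14.8, 19.4 and 15.7 CPM with nivolumab, and Ffar3, a receptor for short-chain fatty acids, at 1.81, 1.78 and 3.43 CPM in cancer and 0.722, 0.437 and 0.436 CPM with nivolumab. In these 3 genes every nivolumab library was below every cancer library. Of 34 oxidative phosphorylation genes 33 were higher, with a median log2 difference of 0.27. Of the 34, 2 (5.88%) had an unadjusted p under 0.05, near the 5.55% of all genes higher. The count of 2 was 8 without cancer replicate 3, and 0 without cancer replicate 1, cancer replicate 2, nivolumab replicate 1, nivolumab replicate 2 or sham replicate 2.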
